A study of Mus musculus with 6 samples.

Results

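The vacuolar proton pump (V-ATPase) of the mouse adrenal gland was described through 10 subunit genes, with the signals of chromogranin A (Chga) knockout adrenals set beside those of wild-type adrenals. Members were all probe sets that the array annotation assigned to Atp6v1a, Atp6v1b2, Atp6v1d, Atp6v1e1, Atp6v1f, Atp6v0a1, Atp6v0b, Atp6v0c, Atp6v0d1 or Atp6ap1, matched by Entrez identifier. Of the 10 genes, 8 were found, with 13 probe sets, among 8251 named genes on the array. Atp6v0c and Atp6v1f were not analysed here. Another 15 subunits were listed beside them, of which 8 were found, with 10 probe sets, and the other 7 were not analysed here.

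There were 3 arrays of Chga knockout adrenals and 3 arrays of wild-type adrenals, from male mice of 12 weeks in both groups, and each array was read as 1 animal. The labels give the genotype of each mouse and the publication that described both strains, and no further allele, agent or genetic background. RNA came from whole glands, so cortex, medulla and any tissue left on the gland were measured together, and fewer cells of a type cannot be told apart from less RNA per cell. The labels do not say whether the animals or arrays were handled together, so p-values measure only the spread between these arrays.

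The V-ATPase is a rotary enzyme of endosomes, lysosomes, Golgi membranes and secretory granules. Its cytosolic V1 sector hydrolyses ATP and turns a central stalk, and its membrane sector V0 carries protons into the organelle through a rotating ring of proteolipids beside the a subunit. In chromaffin cells of the adrenal medulla the pump acidifies the catecholamine granule, and the proton gradient drives the vesicular monoamine transporters. The low pH and calcium of the granule also favour the condensation of granins such as chromogranin A.

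The promoters of some subunits share a sequence feature that the choice of members did not use. The letters CACGTG, the core of the palindromic E-box that TFEB and related lysosomal regulators bind, read the same on both strands. They were looked for in RefSeq windows of 300 bases, from 250 before to 50 after the gene start (GRCm38.p6). Of the 16 subunits with a probe set, 11 had such a window, and 4 of these held the letters: Atp6v1a, Atp6v0b, Atp6v0d1 and Atp6v0e. Subunits without a probe set added windows but no match. With them counted, 3 of 9 members with a window and 1 of 10 other listed subunits with a window held the letters. Over the whole table, 8.09% of 27025 genes and 7.15% of 32851 windows held them. In each of the 4 subunits a T stood before the letters on at least 1 strand. Such a T with the letters was found in 4.29% of all genes, against 8.09% with the letters alone. It is thus common among genes that hold them. These 4 subunits were picked by the letters, so that they share them is no finding, and beyond the T nothing else in the windows was compared. The stretches around the letters are shown 5′ to 3′ on the gene's strand, with the match in capitals.
Atp6v1a: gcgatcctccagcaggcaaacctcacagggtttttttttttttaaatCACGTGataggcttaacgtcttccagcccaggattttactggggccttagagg
Atp6v0b: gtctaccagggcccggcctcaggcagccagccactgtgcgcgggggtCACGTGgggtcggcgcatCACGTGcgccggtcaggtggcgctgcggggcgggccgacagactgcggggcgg
Atp6v0d1: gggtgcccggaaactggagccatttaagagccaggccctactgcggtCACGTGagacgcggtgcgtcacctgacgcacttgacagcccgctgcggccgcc
Atp6v0e: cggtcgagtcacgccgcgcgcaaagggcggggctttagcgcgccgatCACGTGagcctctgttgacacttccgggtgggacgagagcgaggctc

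The stretch of Atp6v1a lies at chr16:44139338-44139437 on the minus strand, and its match begins 131 bases before the start. That of Atp6v0b lies at chr4:117887295-117887412 on the minus strand, with matches that begin 36 and 18 bases before the start. The Atp6v0d1 stretch lies at chr8:105566015-105566114 on the minus strand, with a match 3 bases before the start. The Atp6v0e stretch lies at chr17:26676352-26676445 on the plus strand, and its match begins at base 4 of the transcript. The arrays measured transcripts only and say nothing of binding at these letters.

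The arrays bore out the labels. The brighter Chga probe set gave 1188, 858 and 951 in knockout adrenals, against 46719, 30213 and 35306 in wild-type adrenals (limma adjusted p = 5.29e-06). Both parts of the gland were present in all arrays. Th, tyrosine hydroxylase of the medulla, averaged 23858 ± 2563 in knockout and 22050 ± 3869 in wild-type adrenals (SD, n = 3 each). Star, which brings cholesterol into cortical mitochondria, averaged 72243 ± 6682 and 79680 ± 15680 on its brighter probe set. On its dimmer probe set it averaged 8239 ± 1479 and 11984 ± 4018. There the log2 change was -0.50 ± 0.25 (SE, limma adjusted p = 0.487), and the groups overlapped. Dbh and Cyp11b1 were not analysed here. The summed signal of 10 medulla probe sets ran between 246612 and 258073 in knockout and between 211551 and 244307 in wild-type arrays. Chgb, which encodes chromogranin B, carried this gap: without its 2 probe sets the sum was 152602, 126251 and 159055 in knockout arrays, against 174507, 141045 and 134941 in wild-type arrays, and the groups overlapped. The brighter Chgb probe set had a log2 change of 0.48 ± 0.13 (SE, adjusted p = 0.230). Of 9 medulla probe sets tested, 6 had values above and 3 below 0, with a median log2 change of 0.15. The 3 below 0 were both probe sets of Pnmt, which makes adrenaline (-0.23 and -0.31), and 1 of Cyb561 (-0.42). Cyb561, the cytochrome of the granule membrane, had 0.20 on its other probe set. The other values above 0 were those of Chgb, Th (0.12), Scg2 (0.15), Ddc (0.27) and Phox2a (0.88). The part of these markers in any value below was not tested. The summed signal of 13 cortex probe sets ran between 529907 and 604766, and between 495772 and 608542.

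No subunit of the pump passed the test between genotypes. Of the 11 member probe sets bright enough to be tested, from 8 genes, 0 passed limma's adjusted p of 0.05 and 0 had an unadjusted p under 0.05. Over all 7453 probe sets tested, 0.443% passed and 11.3% had an unadjusted p under 0.05. Beside such shares, a count of 0 among 11 is near the background. On 0 of the 11 did the 3 knockout arrays lie apart from the 3 wild-type arrays, against 16.4% of all tested probe sets, 7.55% with knockout higher and 8.83% with knockout lower. Their log2 changes, knockout minus wild type, ran between -0.31 and 0.25, with a median of -0.07, beside a median of -0.01 over all tested probe sets. Of the 11, 5 values were above and 6 below 0.

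**Figure D1:**
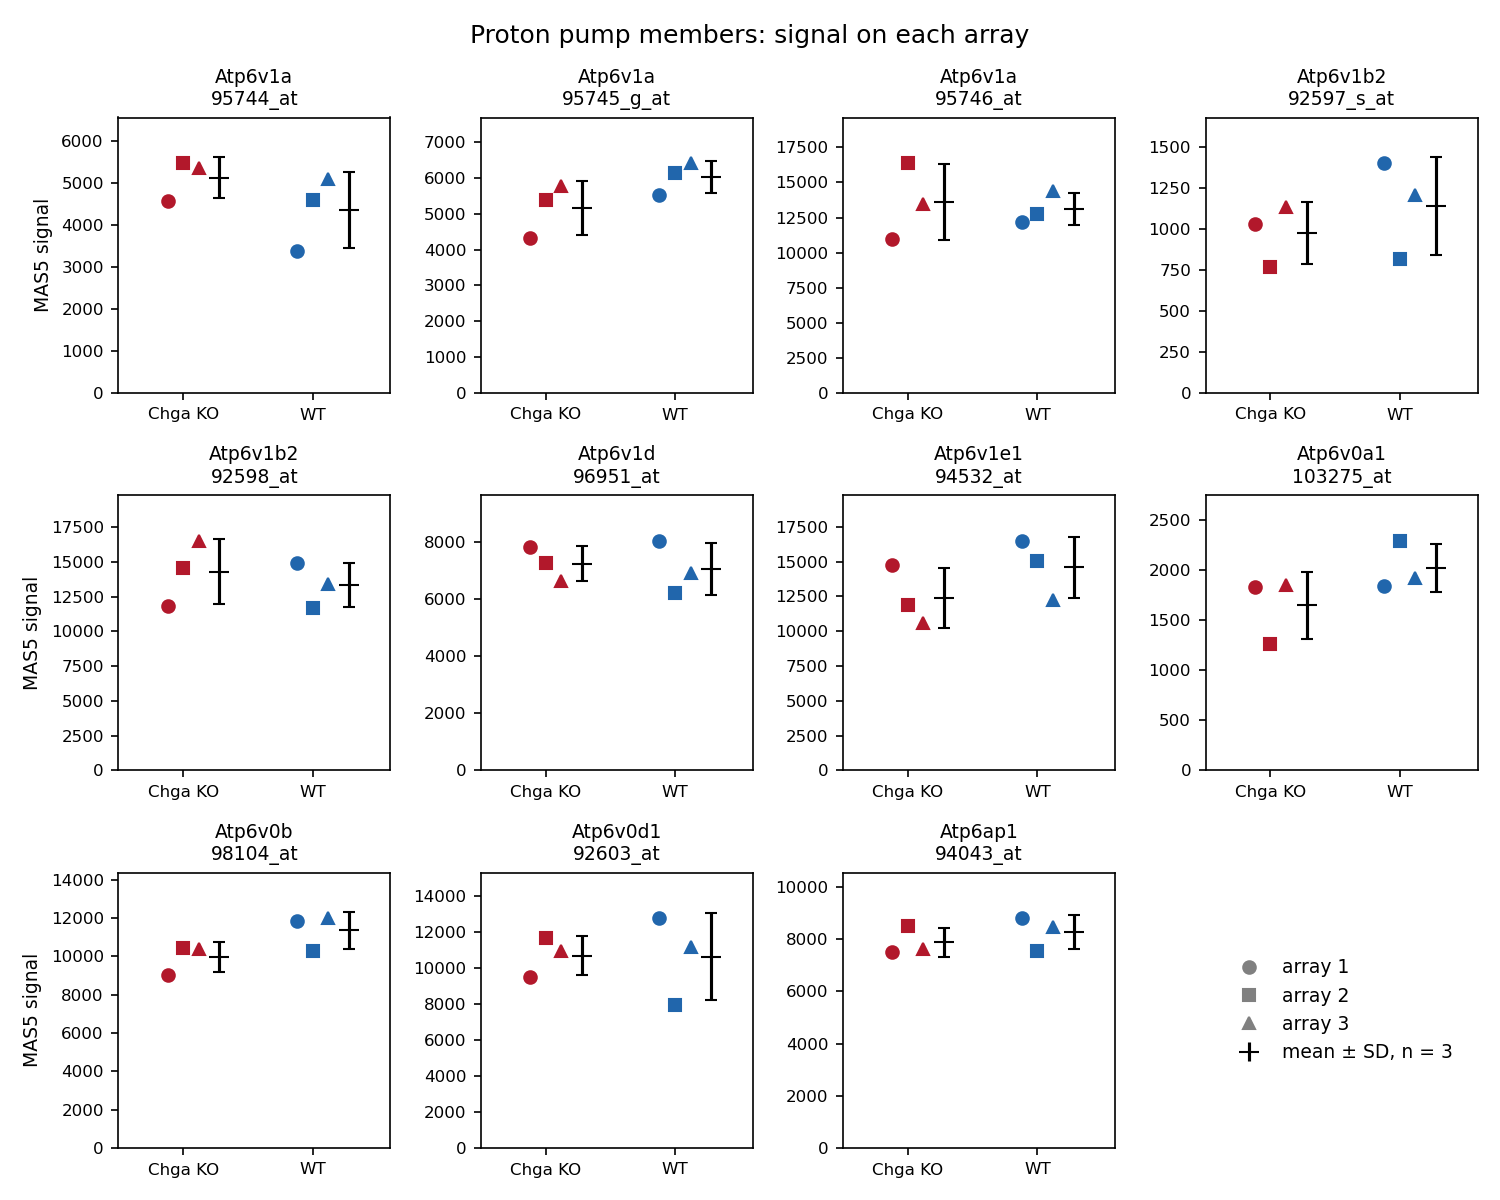
Deposited MAS5 signal (linear, each panel from 0) of the 11 tested member probe sets, with the 3 Chga knockout arrays left and the 3 wild-type arrays right; bars give mean ± SD (n = 3). The 2 groups overlap in each of the 11 panels.

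In the catalytic sector V1, Atp6v1a encodes the A subunit that holds the ATP-hydrolysing site, and it had 3 probe sets. The brightest gave 10976, 16358 and 13436 in knockout adrenals, against 12160, 12741 and 14370 in wild-type adrenals. The knockout arrays held both the lowest and the highest signal, so the wild-type range lay inside that of the knockout. Its log2 change was 0.04 ± 0.16 (SE, adjusted p = 0.954), with a 95% interval of 0.793 to 1.33-fold.

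The other Atp6v1a probe sets, designed on one and the same transcript sequence, had values of opposite sign. The dimmer of them gave 4559, 5460 and 5354 in knockout adrenals, against 3364, 4590 and 5101 in wild-type adrenals. Wild-type array 1 was the lowest of these signals, and the groups overlapped. The log2 change of 0.25 ± 0.18 (SE, adjusted p = 0.648) was the highest among the 21 pump probe sets tested. The brighter gave 4319, 5383 and 5785 in knockout adrenals, against 5531, 6128 and 6410 in wild-type adrenals. Here knockout array 1 was lowest, and only knockout array 3 exceeded any wild-type array. Its log2 change was -0.23 ± 0.16 (SE, adjusted p = 0.616).

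Atp6v1b2 encodes the widespread form of the B subunit, which alternates with A in the V1 head. Its brighter probe set gave 11847, 14573 and 16513 in knockout adrenals, against 14889, 11691 and 13445 in wild-type adrenals. Knockout array 3 was highest, and knockout array 1 lay close to the lowest wild-type array. The log2 change was 0.09 ± 0.16 (SE, adjusted p = 0.857). The dimmer probe set gave 1029, 767 and 1133 in knockout adrenals, against 1401, 815 and 1206 in wild-type adrenals. Its log2 change of -0.20 ± 0.28 had the widest interval of the pump, 0.560 to 1.34-fold, and array 2 was the lowest of each genotype.

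Among the stalks, Atp6v1d encodes the D subunit of the turning central shaft. It gave 7831, 7257 and 6621 in knockout adrenals, against 8028, 6196 and 6904 in wild-type adrenals. The knockout range lay inside the wild-type range, and the log2 change was 0.04 ± 0.15 (SE, adjusted p = 0.942). Atp6v1e1 encodes the E subunit, which holds the head still as part of the outer stalks. Its signals were 14738, 11897 and 10565 in knockout adrenals, against 16495, 15073 and 12213 in wild-type adrenals. Knockout array 1, the highest of its genotype, lay between the wild-type arrays, and the other 2 knockout arrays lay under all wild-type arrays. The log2 change was -0.24 ± 0.17 (SE, adjusted p = 0.637), with an interval of 0.651 to 1.11-fold.

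In the membrane sector V0, Atp6v0a1 encodes the a1 form of the large subunit that lines the proton path, known from synaptic vesicles and other secretory organelles. Its tested probe set gave 1829, 1259 and 1848 in knockout adrenals, against 1843, 2289 and 1922 in wild-type adrenals. Knockout array 2 was the lowest, and the groups overlapped only because knockout array 3 exceeded wild-type array 1 by a few units. The log2 change of -0.31 ± 0.21 was the lowest among the 21 pump probe sets tested, and it did not pass (SE, adjusted p = 0.620). A second Atp6v0a1 probe set was too dim to test, with signals of 79.5, 48.7 and 99.3 in knockout and 62.9, 109 and 82.8 in wild-type adrenals.

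Atp6v0b encodes a proteolipid of the rotating ring. It gave 9039, 10433 and 10366 in knockout adrenals, against 11828, 10264 and 11978 in wild-type adrenals. Wild-type array 2 lay among the knockout arrays and the other 2 wild-type arrays lay above all of them. The log2 change was -0.19 ± 0.13 (SE, adjusted p = 0.624), with an interval of 0.712 to 1.08-fold. Atp6v0d1 encodes the d subunit that couples the ring to the central shaft. Its signals were 9510, 11661 and 10929 in knockout adrenals, against 12766, 7973 and 11202 in wild-type adrenals. The wild-type arrays held both the highest and the lowest signal, and the log2 change was 0.03 ± 0.19 (SE, adjusted p = 0.970).

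Atp6ap1 encodes Ac45, an accessory protein of V0 that was found in the pump of bovine chromaffin granules. Its brighter probe set gave 7499, 8517 and 7619 in knockout adrenals, against 8797, 7553 and 8475 in wild-type adrenals. The groups overlapped over most of their range, with a log2 change of -0.07 ± 0.13 (SE, adjusted p = 0.877). The dim probe set, not tested, averaged 248 ± 92.9 in knockout and 248 ± 8.4 in wild-type adrenals (SD, n = 3 each).

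The other subunits had no call either. Of 10 probe sets from 8 genes, all bright enough to be tested, 0 passed and 0 had an unadjusted p under 0.05 in limma. Their log2 changes had a median of -0.11, with 2 values above and 8 below 0. In V1, the outer stalk genes Atp6v1c1 and Atp6v1g1 had log2 changes of 0.01 ± 0.17 and -0.10 ± 0.18 (SE). Atp6v1h, which encodes the H subunit, had -0.10 ± 0.12 (SE). Wild-type array 1 stood out for Atp6v1g1, which gave 16520, 17582 and 15771 in knockout adrenals, against 23656, 14966 and 15903 in wild-type adrenals. The accessory gene Atp6ap2, also known as the prorenin receptor, averaged 1946 ± 174 in knockout and 2060 ± 81.5 in wild-type adrenals (SD, n = 3 each).

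Forms of the a subunit target the pump to different membranes. Atp6v0a2, the a2 form known from Golgi and endosomes, had 3 probe sets with log2 changes of -0.25, -0.21 and -0.11 (adjusted p = 0.642, 0.653 and 0.849). Tcirg1, the a3 form known from osteoclasts, gave 2564, 2837 and 2837 in knockout adrenals, against 3067, 3593 and 3145 in wild-type adrenals. It was the 1 pump probe set of 21 on which all knockout arrays lay under all wild-type arrays, a split seen on 8.83% of all tested probe sets in that direction. Its log2 change of -0.25 ± 0.15 did not pass (SE, adjusted p = 0.569). All 5 tested probe sets of the a1, a2 and a3 forms thus had values under 0, and none passed. Of these 5, 3 belong to Atp6v0a2 alone and are not separate genes.

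The small membrane subunit e has a widespread form, Atp6v0e, and a second form, Atp6v0e2. Atp6v0e gave 10052, 8029 and 8639 in knockout adrenals, against 12342, 9028 and 9756 in wild-type adrenals, with a log2 change of -0.21 ± 0.16 (SE, adjusted p = 0.655). Atp6v0e2 gave 10685, 12633 and 12486 in knockout adrenals, against 11233, 9645 and 9834 in wild-type adrenals, with a log2 change of 0.22 ± 0.13 (SE, adjusted p = 0.566). The forms thus had values of opposite sign, and their groups overlapped on both probe sets.

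**Figure D2:**
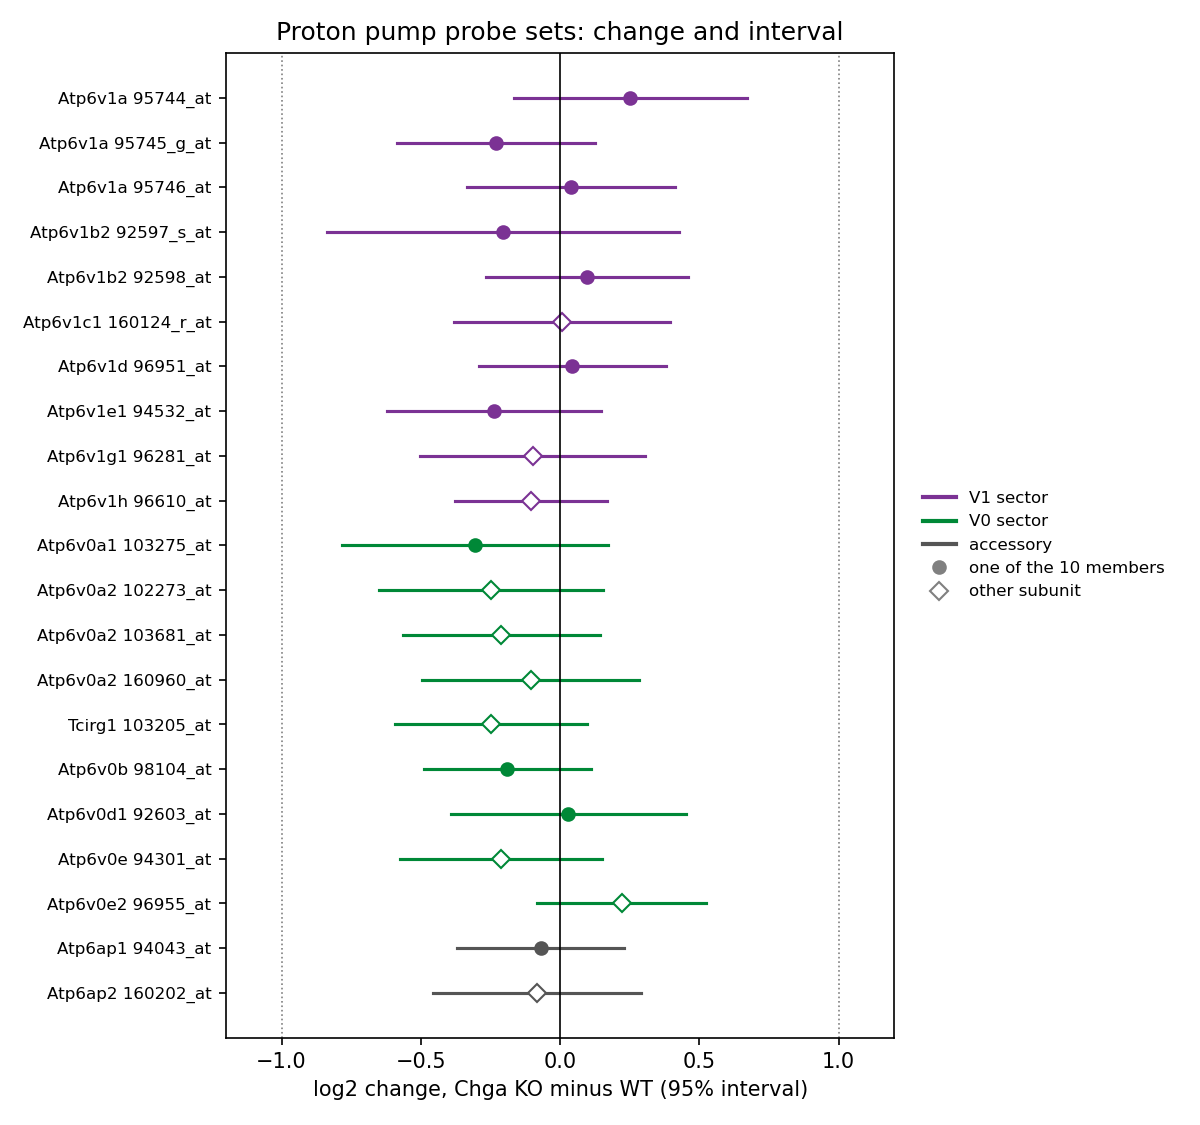
Log2 change (knockout minus wild type) of the 21 tested pump probe sets with 95% intervals from limma, in V1, V0 and accessory order; filled circles are the 10 members' probe sets and open diamonds other subunits, and dotted lines mark a 2-fold difference. All 21 intervals include 0 and lie inside the dotted lines.

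The intervals show what size of difference the 6 arrays could hold. The 95% interval, not adjusted for the number of probe sets, included 0 on all 21 pump probe sets, and the lowest adjusted p was 0.566. On all 21 it lay within 2-fold in either direction, and on 14 of 21 within 1.5-fold. For the 11 member probe sets the outermost bounds were 0.560-fold and 1.59-fold. A missed threshold does not show equal levels, and the intervals leave room for differences up to these bounds.

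The sectors were set side by side by their medians, without a test. The 10 tested V1 probe sets had a median log2 change of -0.05, with 5 values above and 5 below 0. The 9 tested V0 probe sets had a median of -0.21, with 2 above and 7 below 0. Over all tested probe sets, 51.1% lay below 0. The 9 came from 7 genes, and 3 of the 7 values below 0 were from Atp6v0a2. The median absolute log2 change was 0.19 over the pump and 0.19 over all tested probe sets. The most distant pump value, that of Atp6v0a1, had a size that 69.6% of all tested probe sets did not exceed. Relative to each probe set's mean over the 6 arrays, the V0 median was -0.05, -0.06 and -0.03 log2 in knockout arrays 1 to 3, against 0.19, -0.04 and 0.03 in wild-type arrays 1 to 3. Wild-type array 1 held the highest V0 value, and wild-type array 2 lay among the knockout arrays.

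**Figure D3:**
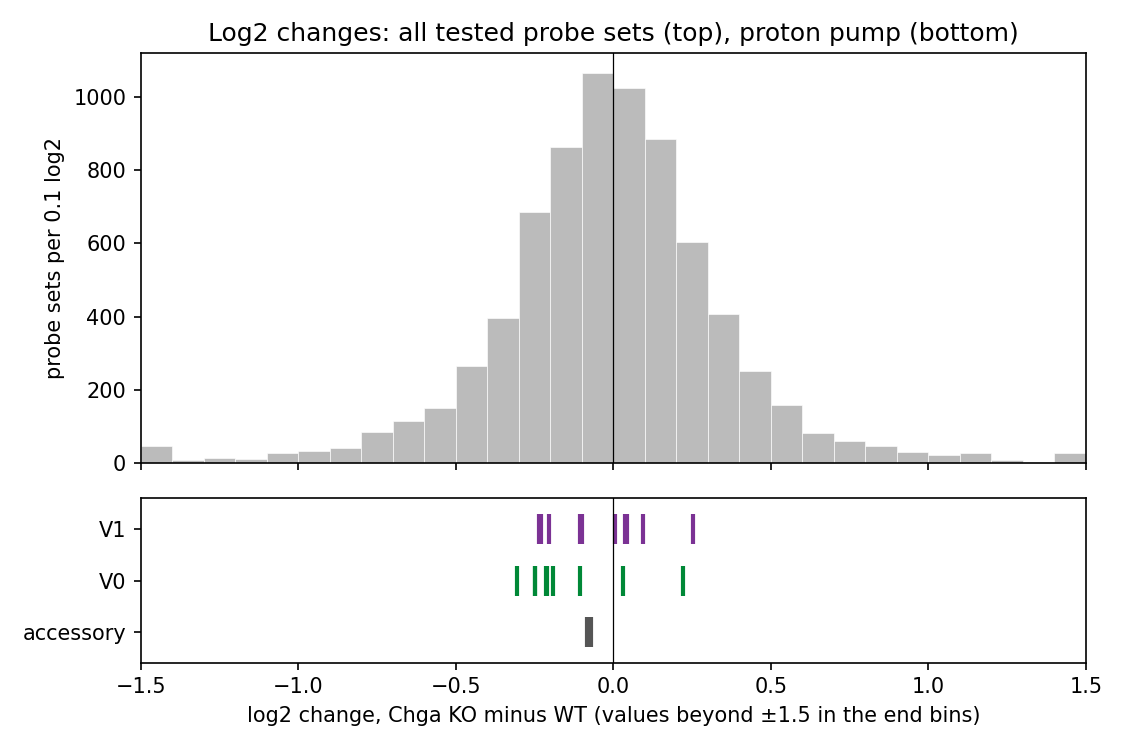
Top, number of tested probe sets (7453) per 0.1 step of log2 change, knockout minus wild type; bottom, each tick is 1 pump probe set of the V1, V0 or accessory group. The 21 ticks lie between -0.31 and 0.25, in the centre of the distribution.

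A measure of RNA quality and the markers of other tissues varied between the arrays. The 3' to 5' signal ratio of the Gapdh control transcript was 0.831, 1.30 and 1.29 in knockout arrays 1 to 3 and between 0.762 and 0.806 in wild-type arrays. That of beta-actin was 1.32, 1.69 and 1.72 in knockout arrays 1 to 3 and between 1.14 and 1.22 in wild-type arrays. The summed signal of 22 probe sets of 14 skeletal muscle markers was 12443, 100176 and 51265 in knockout arrays 1 to 3 and between 12492 and 14825 in wild-type arrays. Of 9 muscle probe sets tested, 0 passed in limma and 4 had an unadjusted p under 0.05. Acta1, skeletal muscle actin, gave 565, 32131 and 13869 in knockout arrays 1 to 3, against 180, 180 and 29.1 in wild-type arrays (adjusted p = 0.153). The summed signal of 20 macrophage probe sets was 25158, 42663 and 36451 in knockout arrays, and between 20996 and 26314 in wild-type arrays. Of 12 macrophage probe sets tested, all 12 had values above 0, with a median log2 change of 0.57; 4 had an unadjusted p under 0.05, 2 had groups apart and 0 passed. Of 13 endothelial probe sets tested, 10 had values above 0, with a median of 0.36; 2 had an unadjusted p under 0.05, 3 had groups apart and 0 passed. No marker of these lists was listed at 0. Over all tested probe sets, 11.3% had an unadjusted p under 0.05 in limma, 16.4% had groups apart and 51.1% had values below 0. The summed signal of 11 adipocyte probe sets was 49953, 88289 and 74028 in knockout arrays 1 to 3. In wild-type arrays 1 to 3 it was 38745, 61598 and 78136, and the groups overlapped. With knockout array 1 alone, whose ratio and muscle signal were nearest to wild type, the member median was -0.14. In that fit the wild-type arrays alone gave the spread and the lone knockout array was assumed to vary like them, so its p-values are not read here. The Gapdh ratio was higher in all knockout than in all wild-type arrays. A fit with it as a covariate can therefore hardly separate the ratio from genotype. In that fit the member median was -0.17 and 0 of 11 passed, which says little of the pump. Atp6v1e1, Atp6v0d1, the brighter Atp6v1b2, the brightest Atp6v1a and 1 Atp6v0a2 probe set took the opposite sign, as with knockout array 1 alone.

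Markers of osteoclasts and intercalated cells, which carry special forms of the pump, were measured as well. Slc4a1, the anion exchanger of erythroid and kidney intercalated cells, was under the filter on a single dim probe set. Its signals were 361, 453 and 187 in knockout and 110, 194 and 633 in wild-type adrenals. The osteoclast protease Ctsk averaged 727 ± 35.2 in knockout and 1014 ± 373 in wild-type adrenals, and the phosphatase Acp5 averaged 1456 ± 379 and 1317 ± 484 (SD, n = 3 each). Of the 8 markers of osteoclasts and intercalated cells, 5 were found on 5 probe sets, 3 were tested and 0 passed. Their summed signal ran between 6090 and 7802 in knockout and between 5562 and 7441 in wild-type arrays. Most of that sum was Car2, which averaged 4419 ± 624 in knockout and 4139 ± 709 in wild-type adrenals (SD, n = 3 each).

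Proteins that assemble the pump or sit with it on the lysosome did not pass either. Of 20 listed genes, 10 were found and 11 probe sets were tested; 0 passed and 1 had an unadjusted p under 0.05, against 11.3% of all tested probe sets. The 1 was Lamtor5, a subunit of the Ragulator complex that anchors mTORC1 signalling to the pump, with 6055, 5145 and 5139 in knockout adrenals, against 7437, 7054 and 6114 in wild-type adrenals. All knockout arrays lay under all wild-type arrays, with a log2 change of -0.33 ± 0.15 (SE, adjusted p = 0.437). Lamtor2, of the same complex, had a log2 change of -0.26 ± 0.13 (adjusted p = 0.484), again with groups apart, while Lamtor1 and Lamtor3 of that complex both had -0.02. Aldoa, a glycolytic enzyme that binds the pump, had changes of 0.15, with all knockout arrays above all wild-type arrays, and of 0.02 on its 2 probe sets. In all, 3 of the 11 had groups apart, 1 higher and 2 lower in knockout, against 16.4% of all tested probe sets. The list's median was -0.02.

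Chloride and proton exchangers of acid organelles, which set the voltage or let protons back out, also had no call. Of 18 listed genes 7 were found, and 0 of 12 tested probe sets passed, with 2 at an unadjusted p under 0.05, a level that 11.3% of all tested probe sets reached. Groups lay apart on 3 of the 12, against 16.4% of all. One probe set of Clcn4, an endosomal chloride and proton exchanger, gave 3682, 2539 and 3194 in knockout adrenals, against 4326, 5382 and 4924 in wild-type adrenals. The knockout arrays lay under all wild-type arrays, with a log2 change of -0.64 ± 0.18 (SE, adjusted p = 0.251), while the other Clcn4 probe set had -0.10 ± 0.16. For the lysosomal exchanger Clcn7 the probe sets disagreed, at 0.92 ± 0.37 on the dimmer and -0.24 ± 0.15 on the brighter (adjusted p = 0.408 and 0.583), with groups apart on both. The sodium and proton exchanger Slc9a8 had 0.27 ± 0.16 (adjusted p = 0.551).

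Of the transporters driven by the proton gradient, 3 of 14 genes were found and 1 probe set was tested. It belonged to Slc30a3, a zinc transporter of secretory vesicles, with a log2 change of 0.12 ± 0.15 (SE, adjusted p = 0.799). The monoamine transporter genes Slc18a1 and Slc18a2 were not analysed here.

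Lysosomal enzymes and membrane proteins, whose work needs the acid lumen, were the largest neighbouring list. Of 50 listed genes 42 were found; 0 of 45 tested probe sets passed, and 7 had an unadjusted p under 0.05, 5 with values above and 2 below 0. Over all tested probe sets 11.3% had such a p, 5.06% with values above and 6.25% below 0. The median log2 change was 0.04. Groups lay apart on 5 of the 45 with knockout higher and on 3 with knockout lower. Of all tested probe sets, 7.55% and 8.83% did so. Laptm5, a lysosomal membrane protein of leukocytes, gave 1263, 2951 and 1499 in knockout adrenals, against 439, 524 and 471 in wild-type adrenals. All knockout arrays lay above all wild-type arrays, with a log2 change of 1.86 ± 0.33 (SE, adjusted p = 0.0602) and of 0.40 ± 0.17 on a second probe set. It passed in 3 of 19 other fits, with array weights (adjusted p = 0.0325), the replicate number as a block (0.0438) and without knockout array 1 (0.0252). Its adjusted p of 0.0602 also lies under the looser threshold of 0.10. The macrophage signal given above was also highest in knockout array 2, and its part in this value was not tested.

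Psap, the precursor of the saposins that activate sphingolipid breakdown, had a log2 change of -1.49 ± 0.50 on its dimmest probe set (adjusted p = 0.351) and of 0.32 and 0.12 on the others. That probe set read 2206, 614 and 500 in knockout arrays 1 to 3, against 1838, 3154 and 2736 in wild-type arrays. Without knockout array 1 it passed (log2 change -2.15, adjusted p = 0.00989). Its 2 low arrays are those with the high 3' to 5' ratios, and the part of these ratios in the value was not tested. Ctss, which encodes the lysosomal protease cathepsin S, also passed without that array (log2 change 1.18, adjusted p = 0.0190), against 0.77 ± 0.31 with all arrays (SE, adjusted p = 0.408). Ctss gave 2540, 6440 and 5419 in knockout arrays 1 to 3, against 2823, 2268 and 2766 in wild-type arrays. Knockout arrays 2 and 3 also had the highest macrophage signal, whose part in this value was not tested. Npc1, which exports cholesterol from lysosomes, gave 11718, 9039 and 8768 in knockout adrenals, against 8345, 5963 and 6839 in wild-type adrenals. The groups lay apart, with a log2 change of 0.48 ± 0.18 (SE, adjusted p = 0.389).

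Regulators of the lysosomal gene programme and of mTORC1 were close to the centre. Of 13 listed genes 9 were found, 0 of 7 tested probe sets passed and 0 had an unadjusted p under 0.05 in limma. Tsc1, a brake on mTORC1, had a log2 change of 0.36 ± 0.24 (SE, adjusted p = 0.60), the GTPase gene Rraga -0.14 ± 0.14 and Tsc2, the partner of Tsc1, -0.11 and 0.03 on 2 probe sets. Tfeb was too dim to test, at 155, 212 and 102 in knockout adrenals, against 158, 197 and 120 in wild-type adrenals. Its protein is among those that bind the letters CACGTG, but binding at the 4 subunits whose windows held them was not measured. Those 4 subunits had log2 changes of -0.19 (Atp6v0b), 0.03 (Atp6v0d1), -0.21 (Atp6v0e) and between -0.23 and 0.25 (Atp6v1a).

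**Figure D4:**
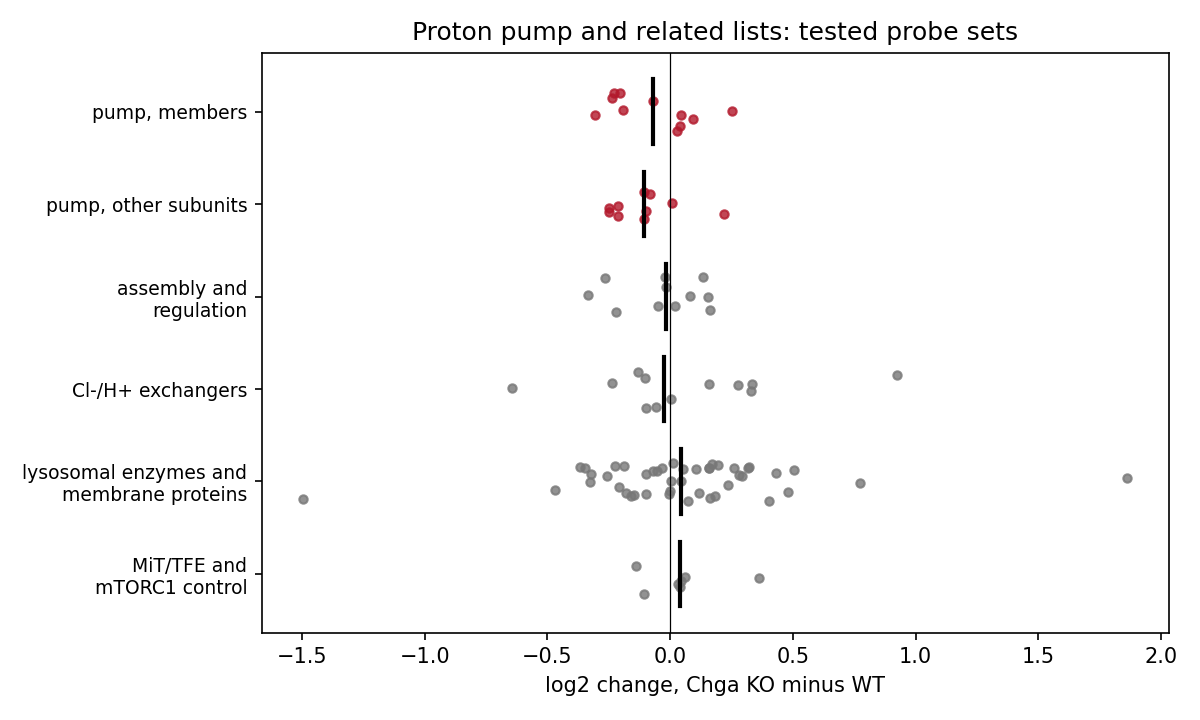
Log2 change (knockout minus wild type) of each tested probe set of the pump (red) and of 4 related lists (grey), with black bars at list medians; the height within a row has no meaning. The pump lies between -0.31 and 0.25, and the lysosomal list reaches from -1.49 (Psap) to 1.86 (Laptm5).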

How the data were processed

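Each array took 1 biotin-labelled RNA sample of whole adrenal gland (Affymetrix, single-colour). Per the submitters' processing notes, the deposited linear intensities come from MAS5. Its version and scaling target, and a genome build, are not given in the sources, and detection calls were not used. The mean signal without the top and bottom 2% of probe sets was 2501 on each array, so values were not normalized again. An array gives no counting depth; median signals were 953 to 1092, and array pairs correlated across probe sets with r of 0.935 to 0.960.

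Of 12488 probe sets, 66 controls were left out, and 10833 others had 1 gene symbol, 396 several and 1193 none listed. Symbols were updated by Entrez identifier through a RefSeq table of GRCm38, which lacked 16. Signals were tested as log2(signal + 16), which understates changes of dim genes. Probe sets under the 40th percentile of mean log2 signal (a signal of 582) were left out, which kept 7453. They were fitted with limma 3.58.1 in R 4.3.3 (lmFit, eBayes with trend; genotype only), and p-values were adjusted by Benjamini-Hochberg over the whole set tested. Every adjusted p is from this fit unless an alternative is named. Probe sets of a gene are called brighter or dimmer by mean signal only to tell them apart.

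The members, lists and alternatives were chosen with earlier results of these data known. Named were Chga, all pump probe sets, up to 3 genes of smallest p per related list, and fixed marker genes. Tfeb, Ctss, Lamtor1, Lamtor3, Chgb, Pnmt, Cyb561, Scg2, Ddc, Phox2a and Car2 were chosen after their values were seen. Same-numbered arrays of the 2 genotypes had deviations that correlated with r of 0.26, -0.04 and -0.04, so numbers were not read as pairs. Among arrays of different numbers r ran between -0.18 and 0.25. It was 0.25 for knockout array 2 with wild-type array 3 and 0.16 for knockout array 3 with wild-type array 2. Alternatives were pseudocounts of 1 and 64, no filter or the 60th percentile, quantile, median and cyclic loess scaling, other variance models, array weights, the replicate block, the Gapdh ratio as a covariate, knockout array 1 alone, each array left out, and a threshold of 0.10.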

Additional observations from a re-analysis of the deposited data

How the results depend on the processing

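Of 21 pump probe sets, 0 passed in limma under any of 19 alternatives, and the lowest adjusted p was 0.315 (Atp6v1e1, without knockout array 1). The fit with knockout array 1 alone, where the wild-type arrays alone gave the spread, says nothing of stability. The covariate fit says little of stability, since the Gapdh ratio was higher in all knockout than in all wild-type arrays. The count of all probe sets that passed, 33, was 17 without the intensity trend, 57 with the replicate number as a block, 12 with the Gapdh ratio as a covariate, 13 with knockout array 1 alone and 55 at a threshold of 0.10. It ran between 15 and 141 when 1 array was left out: 141 without knockout array 1, 15 without knockout array 3, and 17 and 19 without wild-type arrays 2 and 3. With the replicate block the count of pump probe sets that passed stayed 0. Not every knockout array correlated best with the wild-type array of its number.

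The member median of -0.07 was -0.17 with the covariate and ran between -0.17 and -0.025 with 1 array left out. The sign of 13 of the 21 changes held in all alternatives. The other variance models and the replicate block left each change as it was, so no sign could turn there. With the covariate, and then with knockout array 1 alone, values of opposite sign were -0.31 and -0.25 for the brightest Atp6v1a probe set, -0.23 and -0.16 for the brighter Atp6v1b2 one, 0.082 and 0.025 for Atp6v1e1, 0.053 and 0.037 for the dimmest Atp6v0a2 one and -0.21 and -0.14 for Atp6v0d1. Atp6v1c1 was -0.0078 under quantile scaling. Leaving out 1 array gave ranges that crossed 0 for the same Atp6v1a (-0.10 to 0.18) and Atp6v1b2 (-0.015 to 0.22) probe sets, and for Atp6v1c1 (-0.091 to 0.15), Atp6v1d (-0.044 to 0.14), Atp6v1g1 (-0.22 to 0.11) and Atp6v0d1 (-0.17 to 0.17). The dim Atp6v1b2 probe set was not tested at the 60th percentile. The cause of these shifts was not tested. All had an adjusted p far above the threshold. No scaling moved the median over all probe sets by more than 0.1. Dixon's test was not run, with 3 arrays a group.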
